A study of Mus musculus with 45 samples.

Results

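Polycomb group proteins keep developmental genes silent in embryonic stem cells (ESCs). Polycomb repressive complex 2 (PRC2) places methyl groups on histone H3 (H3K27me3) through Ezh2 or its paralog Ezh1, and needs the core subunits Suz12 and Eed. Jarid2 is an accessory subunit that helps to recruit PRC2. Polycomb repressive complex 1 (PRC1) places ubiquitin on histone H2A through the RING protein Rnf2 (Ring1b). Bmi1 is a PCGF partner of the RING protein, and Cbx2 and Cbx7 are alternative chromobox subunits that bind the PRC2 mark. As background, undifferentiated mouse ESCs are known for PRC1 with Cbx7, and differentiating cells for a shift towards Cbx2, Bmi1 and Ezh1.

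These 9 genes (Ezh2, Ezh1, Suz12, Eed, Jarid2, Rnf2, Bmi1, Cbx2 and Cbx7) were taken by symbol from the 33924 genes listed in each of 2 RNA-seq tables, as subunits of PRC2 and PRC1. All 9 varied in both tables, as did 21979 genes of the ΔPG table and 22048 of the ΔG table. No filter on low values was set, so no member was lost to one.

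The study deleted the lncRNA gene 5430416N02Rik in mouse D3 ESCs, grown without feeders in serum and LIF. In the ΔPG line a PGK-puro cassette stands in place of the gene body and the promoter, and in the ΔG line a GFP-IRES-Puro cassette stands in place of the gene body alone. RNA-seq was made from heterozygous (het) and homozygous (hom) cells of each line, treated for 48 h with DMSO (ES) or with 2 µM retinoic acid (RA), which starts differentiation. Each of the 8 groups holds 3 biological replicates, 24 samples in all. Every group carries at least 1 deleted allele and a cassette, so no group is wild type. The labels do not say which clone gave each library, so clone and genotype cannot be told apart. The samples are bulk RNA, in which fewer cells of a type and less RNA per cell cannot be told apart.

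Values are regularized log (rlog) values, which are normalised read counts on the log2 scale with low counts drawn towards the mean of the gene. A gene was called in a comparison at an adjusted p under 0.1 (limma, Benjamini-Hochberg over all varying genes) and a difference over 0.5. The 2 tables were normalised separately, and tests were made only within a table. The depth of each sample is unknown, since the tables hold no counts.

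The labels of the libraries were checked first. 5430416N02Rik was between 3.80 and 4.62 in the 6 ΔPG het samples and between 2.12 and 2.66 in the 6 ΔPG hom samples. In the ΔG table it was between 5.50 and 5.64 in het and between 2.63 and 3.08 in hom samples, with no overlap in either line. Markers of undifferentiated ESCs, the log2 of whose summed level (2 to the power of the rlog value, summed over genes) was between 13.7 and 14.0 in ES samples, were between 10.6 and 10.7 in RA samples, and all 7 measured markers fell in each RA comparison. The 5 retinoic acid response genes all rose in each RA comparison. Primitive endoderm markers (6 of 6 rose in each RA comparison), neural markers (2 of 4 rose and 1 fell in each) and fibroblast markers (4 of 6 rose in ΔPG het and 5 of 6 in the others, and 1 fell in each ΔPG comparison) moved with the treatment, and so moved beside every RA result below. No defining marker of primitive endoderm or fibroblasts stayed under 1 in every sample. The part of these cells in the Polycomb values was not tested.

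The 3 ES ΔPG het libraries stood apart. Their deviations from the gene means of the table correlated with the exonic GC content of the genes at r = 0.333 to 0.339 over 11904 genes, against -0.292 to -0.238 in ES ΔPG hom and -0.0853 to -0.0238 in the 6 RA ΔPG libraries. For the ΔG line it was -0.135 to -0.106 in ES libraries and 0.0626 to 0.165 in RA libraries. The values of the members that use ES ΔPG het are therefore also given after a smooth GC trend was removed from every library ("GC trend removed"). The ΔPG hom, ΔG het and ΔG hom comparisons of RA with ES do not use these libraries. However, their RA and ES libraries did not overlap in this correlation either. Exonic GC content of the members ran from 39.1% in Rnf2, 41.0% in Suz12 and 42.1% in Bmi1 through 44.2% in Ezh2, 47.1% in Eed, 49.3% in Ezh1 and 50.1% in Jarid2 to 57.4% in Cbx7 and 58.1% in Cbx2.

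Promoter windows (250 bases before to 50 after the RefSeq start, GRCm38.p6, 5′ to 3′ on the strand of the gene) are shown for the core pair of PRC2 that fell with RA, for Bmi1, which rose, and for the paralogs Ezh2 and Ezh1, which were not called. Capitals mark matches on either strand to the E2F letters TTTCCCGC, TTTCGCGC, TTTGCCGC or TTTGGCGC, the CCAAT box CCAAT and the E-box CACGTG.

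Suz12 (chr11:79992856-79993155, + strand): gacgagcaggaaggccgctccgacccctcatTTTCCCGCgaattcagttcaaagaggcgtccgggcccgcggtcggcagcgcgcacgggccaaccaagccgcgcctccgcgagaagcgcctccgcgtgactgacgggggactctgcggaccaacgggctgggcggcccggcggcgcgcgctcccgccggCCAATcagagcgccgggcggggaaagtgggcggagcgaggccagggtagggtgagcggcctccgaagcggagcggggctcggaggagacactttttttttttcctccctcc

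Eed (chr7:89980927-89981226, - strand): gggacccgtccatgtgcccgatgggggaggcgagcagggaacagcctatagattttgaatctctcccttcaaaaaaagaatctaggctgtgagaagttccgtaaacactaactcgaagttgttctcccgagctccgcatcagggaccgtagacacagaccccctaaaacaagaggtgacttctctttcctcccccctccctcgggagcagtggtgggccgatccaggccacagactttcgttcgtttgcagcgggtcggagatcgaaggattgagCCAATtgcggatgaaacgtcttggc

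Bmi1 (chr2:18676768-18677067, + strand): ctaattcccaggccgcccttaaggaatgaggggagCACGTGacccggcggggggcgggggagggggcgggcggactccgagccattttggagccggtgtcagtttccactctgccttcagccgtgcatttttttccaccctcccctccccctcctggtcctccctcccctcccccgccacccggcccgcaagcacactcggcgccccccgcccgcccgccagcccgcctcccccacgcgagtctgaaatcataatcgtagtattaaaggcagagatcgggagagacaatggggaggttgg

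Ezh2 (chr6:47594981-47595280, - strand): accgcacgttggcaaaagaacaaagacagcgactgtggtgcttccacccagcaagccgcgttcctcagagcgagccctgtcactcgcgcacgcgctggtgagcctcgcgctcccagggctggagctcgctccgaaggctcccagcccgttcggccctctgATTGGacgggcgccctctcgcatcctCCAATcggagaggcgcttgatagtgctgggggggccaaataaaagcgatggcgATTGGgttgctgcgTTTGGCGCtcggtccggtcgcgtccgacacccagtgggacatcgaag

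Ezh1 (chr11:101226414-101226713, - strand): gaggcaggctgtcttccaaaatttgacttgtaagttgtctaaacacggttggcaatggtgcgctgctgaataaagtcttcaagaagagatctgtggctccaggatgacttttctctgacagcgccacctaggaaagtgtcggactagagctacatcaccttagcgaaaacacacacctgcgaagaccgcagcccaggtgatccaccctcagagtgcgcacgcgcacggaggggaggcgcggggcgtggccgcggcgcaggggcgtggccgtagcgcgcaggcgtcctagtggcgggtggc

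Of the 9 genes 8 had a window in the table, and Cbx2 had none. The E2F letters were in the windows of Ezh2 and Suz12 and in 2.26% of 32851 windows. The CCAAT box was in those of Cbx7, Eed, Ezh2, Jarid2 and Suz12 (37.4% of all windows), and the E-box in that of Bmi1 (7.15%). No 2 matches overlapped in the windows printed. The retinoic acid receptor repeat, AGGTCA given again after 5 bases, was in no member's window and in 0.00913% of all windows. The windows held 41 CpG in Suz12, 17 in Eed, 23 in Bmi1, 31 in Ezh2 and 23 in Ezh1, with a median of 7.0 over all windows. Eed and Bmi1, which moved in opposite directions, shared none of the searched letters. These matches are a description of the letters, and no binding was measured here.

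On a per-length scale (mean rlog value minus the log2 of exonic length in kb), Eed had the highest level of the 9 in ES cells and Ezh1 the lowest in 3 of the 4 ES groups. In ES ΔG het the levels were 8.28 for Eed, 7.58 for Suz12, 7.45 for Rnf2, 6.88 for Cbx7, 6.77 for Jarid2, 5.67 for Ezh2, 4.80 for Bmi1, 4.41 for Cbx2 and 4.04 for Ezh1. Suz12 and Rnf2, and Cbx7 and Jarid2, were the closest neighbours in this order. In RA ΔG het the order began with Rnf2 at 7.35, Eed at 6.49 and Cbx7 at 6.46 and ended with Bmi1 at 5.63 and Ezh1 at 3.88. Eed and Suz12 (6.30) thus came below Rnf2, and Cbx2 (5.76) came above Ezh2 (5.65). Eed and Cbx7, and Ezh2 and Bmi1, did not differ there beyond their spread over 3 samples. Gene length was taken from all annotated exons, so these levels hold only as far as all exons are used.

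The first question was what 48 h of RA did to each subunit, in 4 comparisons. Eed fell and Bmi1 and Cbx2 rose in all 4. Suz12 fell in 3 as deposited and in all 4 with the GC trend removed. Jarid2 fell in both het comparisons. Ezh2 and Ezh1 were called in none. With the GC trend removed, the differences in ΔPG hom, ΔG het and ΔG hom were -1.55, -1.78 and -1.76 for Eed. They were -0.85, -1.16 and -1.12 for Suz12, 0.81, 0.90 and 0.81 for Bmi1 and 1.09, 1.18 and 1.35 for Cbx2, all called. In numbers, 3 members were higher and 2 lower in ΔPG het, where 31.6% of all genes were called (18.0% higher and 13.6% lower). In ΔPG hom 2 were higher and 2 lower, where 27.8% of genes were called (16.5% and 11.3%). In ΔG het 2 were higher and 3 lower (29.5% of genes called, 17.7% higher and 11.7% lower). In ΔG hom 2 were higher and 2 lower (29.2%, 17.0% and 12.1%). RA and ES samples did not overlap in 9 members in ΔPG het, 7 in ΔPG hom, 6 in ΔG het and 8 in ΔG hom, against 56.1%, 52.7%, 54.5% and 52.6% of all genes. On the limit of p alone 9, 7, 6 and 6 members passed, against 57.4%, 52.0%, 54.5% and 53.4% of genes. With the GC trend removed, over genes with a mean of at least 3, 5, 4, 6 and 4 members were called, against 45.3%, 41.9%, 45.3% and 46.3% of genes, so these counts of members lie near the background.

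**Figure D1:**
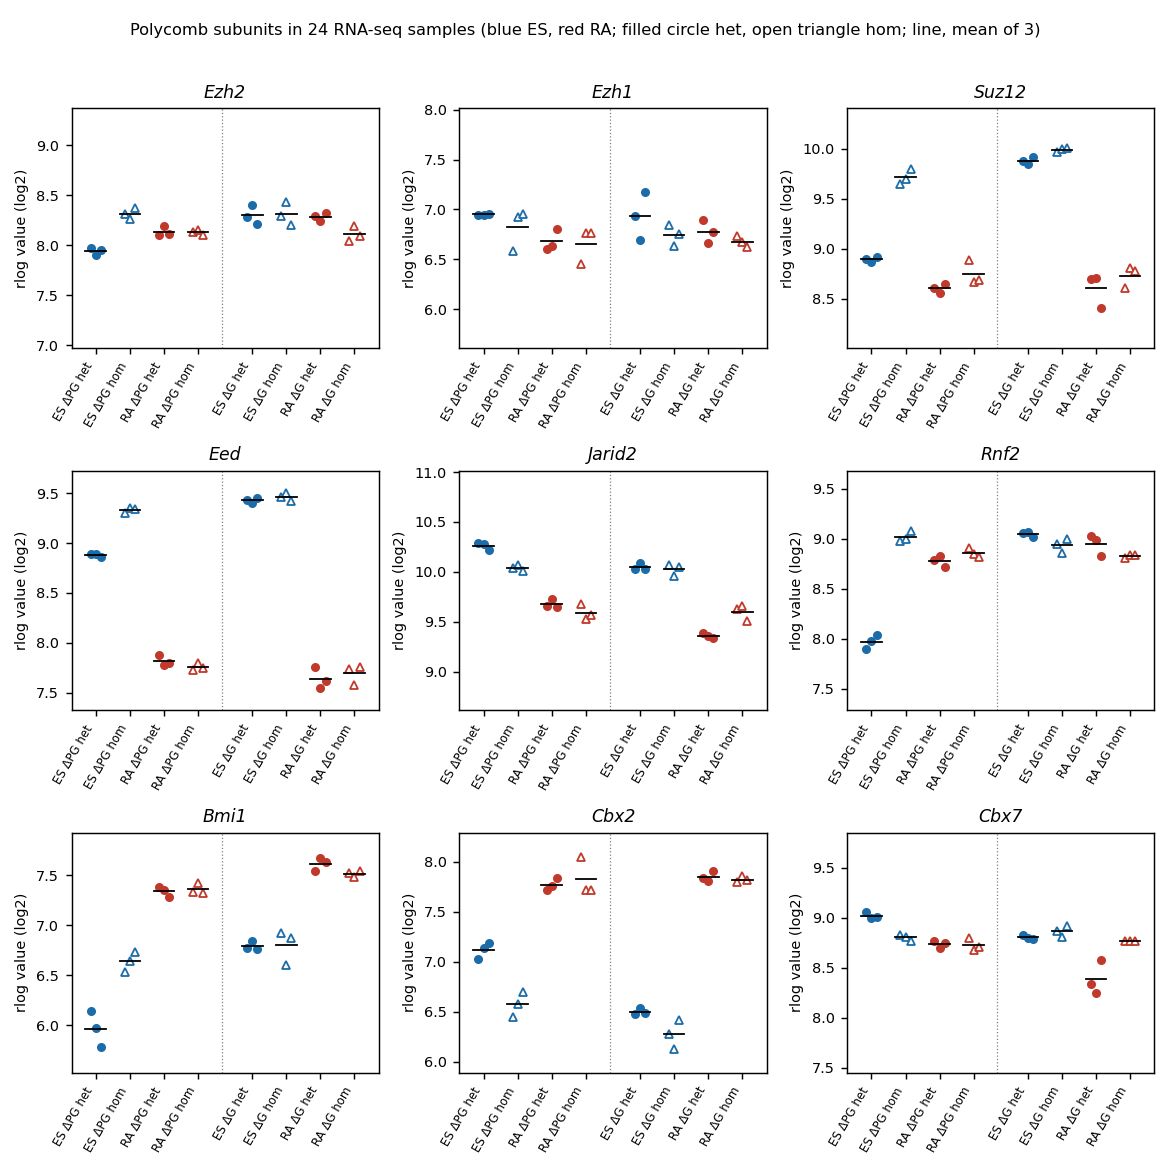
rlog value (log2, vertical axis) of each of the 9 subunits in the 24 samples, grouped along the horizontal axis by treatment, line and genotype, with points for single samples and a line for the mean of 3. Eed is lower and Bmi1 and Cbx2 are higher in every RA group than in every ES group of the same line, and the 3 ES ΔPG het samples of Rnf2 (7.89 to 8.03) lie below all other Rnf2 values. The panels to the left and right of the dotted line come from separately normalised tables.

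Among the core subunits of PRC2, Eed changed most. Eed, which binds methylated H3K27 and stimulates the enzyme, was at 8.90, 8.89 and 8.87 in ES ΔPG het and at 7.88, 7.78 and 7.80 in RA ΔPG het. It was at 9.30, 9.35 and 9.34 in ES ΔPG hom and at 7.73, 7.80 and 7.75 in RA ΔPG hom. All RA values of the table lay below all ES values, and the RA values of both genotypes ran together while the ES values did not. In ΔG cells Eed was at 9.43, 9.40 and 9.45 in ES het, at 9.46, 9.50 and 9.42 in ES hom, at 7.75, 7.55 and 7.62 in RA het and at 7.74, 7.58 and 7.76 in RA hom. Again no RA sample reached an ES sample. Eed fell, with differences of -1.06 in ΔPG het (adjusted p = 2.44e-07; -1.14 with the GC trend removed), -1.57 in ΔPG hom (2.36e-10), -1.79 in ΔG het (3.55e-11) and -1.77 in ΔG hom (4.58e-14). It was called under each of the 16 alternatives tried per comparison. Among these, here and below, the limit on p alone could not lose a call made under both limits, and others left out single samples.

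Suz12, the subunit that holds the core of PRC2 together, was at 8.90, 8.87 and 8.92 in ES ΔPG het and at 8.60, 8.56 and 8.65 in RA ΔPG het. It was at 9.65, 9.70 and 9.80 in ES ΔPG hom and at 8.89, 8.67 and 8.69 in RA ΔPG hom. The ES ΔPG het samples lay nearer to the RA samples than to the ES samples of the hom cells. Its ΔG values were 9.88, 9.85 and 9.92 in ES het, 9.97, 10.00 and 10.01 in ES hom, 8.70, 8.71 and 8.41 in RA het and 8.61, 8.81 and 8.78 in RA hom. All ES samples of that table lay more than 1 above all RA samples. Suz12 fell, with differences of -0.97 in ΔPG hom (adjusted p = 1.62e-07), -1.28 in ΔG het (4.26e-09) and -1.26 in ΔG hom (6.76e-13). In ΔPG het the difference was -0.29 (95% interval -0.37 to -0.22, adjusted p = 0.00014), under the limit of 0.5, and with the GC trend removed it was -0.68 and was called.

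Jarid2 was at 10.29, 10.28 and 10.22 in ES ΔPG het, 10.04, 10.07 and 10.01 in ES ΔPG hom, 9.66, 9.73 and 9.65 in RA ΔPG het and 9.68, 9.53 and 9.57 in RA ΔPG hom. In the ΔG table it was at 10.03, 10.08 and 10.03 in ES het, 10.07, 9.96 and 10.05 in ES hom, 9.39, 9.36 and 9.34 in RA het and 9.63, 9.66 and 9.50 in RA hom. RA and ES samples did not overlap in either table. Jarid2 fell, with differences of -0.58 in ΔPG het (adjusted p = 2.49e-06; -0.54 with the GC trend removed) and -0.69 in ΔG het (8.1e-09). In hom cells the differences of -0.45 in ΔPG (4.7e-06) and -0.43 in ΔG (4.04e-07) passed the limit on p but not that on size. Jarid2 was called under 14 of 16 alternatives in ΔPG het and 15 of 16 in ΔG het, and some of its calls moved with the scaling. With quantile normalisation the difference was -0.36 in ΔPG het and -0.50 in ΔG het and neither was called, and with a gene length trend removed those in ΔPG hom (-0.71) and ΔG hom (-0.70) were called.

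The catalytic subunits of PRC2 moved little. Ezh2 was at 7.97, 7.90 and 7.95 in ES ΔPG het, 8.31, 8.26 and 8.37 in ES ΔPG hom, 8.10, 8.19 and 8.11 in RA ΔPG het and 8.13, 8.15 and 8.10 in RA ΔPG hom. In ΔG cells it was at 8.28, 8.41 and 8.21 in ES het, 8.29, 8.44 and 8.20 in ES hom, 8.29, 8.24 and 8.32 in RA het and 8.05, 8.19 and 8.09 in RA hom. The RA values of the ΔPG table lay between those of the ES het and ES hom samples. The differences of RA from ES were 0.19 in ΔPG het (95% interval 0.10 to 0.28), -0.19 in ΔPG hom (-0.30 to -0.08), -0.02 in ΔG het (-0.15 to 0.12) and -0.20 in ΔG hom (-0.35 to -0.05). None was called, and with the GC trend removed the first was -0.03.

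Ezh1, the less active paralog, was at 6.95, 6.95 and 6.96 in ES ΔPG het, 6.59, 6.92 and 6.96 in ES ΔPG hom, 6.61, 6.63 and 6.81 in RA ΔPG het and 6.46, 6.76 and 6.76 in RA ΔPG hom. Its ΔG values were 6.94, 6.70 and 7.17 in ES het, 6.84, 6.64 and 6.75 in ES hom, 6.90, 6.66 and 6.77 in RA het and 6.73, 6.67 and 6.62 in RA hom. RA and ES samples overlapped in all comparisons but ΔPG het. The differences were -0.27 in ΔPG het (95% interval -0.41 to -0.12; -0.26 with the GC trend removed), -0.16 in ΔPG hom (-0.42 to 0.09), -0.16 in ΔG het (-0.40 to 0.08) and -0.07 in ΔG hom (-0.26 to 0.12). None was called, and none of these 4 intervals reached 0.5 in either direction. With a gene length trend removed the difference in ΔPG het was -0.51 and was called lower.

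The RNA balance of the 2 enzymes was also read within each sample, as Ezh1 minus Ezh2 on the log2 scale. It was -1.02, -0.96 and -0.99 in ES ΔPG het and -1.5, -1.56 and -1.30 in RA ΔPG het. The change was -0.46 ± 0.08 (SE), towards Ezh2 (two-sided exact permutation test, p = 0.1, the smallest that 3 against 3 samples allow), and -0.22 with the GC trend removed. In the other 3 comparisons RA and ES samples overlapped. The change was 0.02 ± 0.16 (SE) in ΔPG hom (exact permutation p = 0.8), -0.14 ± 0.20 in ΔG het (exact permutation p = 0.6) and 0.13 ± 0.13 in ΔG hom (exact permutation p = 0.6).

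Among the PRC1 subunits, the RNA difference between the paralogs Cbx2 and Cbx7 changed more. Cbx2 was at 7.03, 7.14 and 7.19 in ES ΔPG het, 6.45, 6.58 and 6.70 in ES ΔPG hom, 7.72, 7.76 and 7.84 in RA ΔPG het and 8.05, 7.72 and 7.72 in RA ΔPG hom. For the ΔG line it was at 6.48, 6.53 and 6.48 in ES het, 6.28, 6.13 and 6.42 in ES hom, 7.84, 7.81 and 7.91 in RA het and 7.80, 7.86 and 7.82 in RA hom. Every RA sample lay above every ES sample of its table. Cbx2 rose by 0.65 in ΔPG het (adjusted p = 3.6e-05; 0.90 with the GC trend removed), 1.26 in ΔPG hom (9.39e-07), 1.36 in ΔG het (1.96e-09) and 1.55 in ΔG hom (5.41e-11). It was called under each of the 16 alternatives per comparison.

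Cbx7, the chromobox subunit best known from undifferentiated ESCs, was at 9.06, 8.99 and 9.01 in ES ΔPG het, 8.83, 8.81 and 8.77 in ES ΔPG hom, 8.76, 8.70 and 8.75 in RA ΔPG het and 8.80, 8.68 and 8.71 in RA ΔPG hom. In ΔG cells it was at 8.83, 8.80 and 8.79 in ES het, 8.87, 8.81 and 8.92 in ES hom, 8.33, 8.24 and 8.57 in RA het and 8.77, 8.76 and 8.76 in RA hom. The 3 RA ΔG het samples were the lowest of that table. The differences were -0.28 in ΔPG het (adjusted p = 0.000132), -0.08 in ΔPG hom (0.227), -0.42 in ΔG het (0.000326) and -0.10 in ΔG hom (0.135), and none was called. That in ΔPG het was -0.03 with the GC trend removed (limma, adjusted p = 0.531). Those in hom cells were then -0.21 in ΔPG (0.000491) and -0.27 in ΔG (2.1e-05), past the limit on p but not that on size. The difference in ΔG het crossed the limit of size with the GC trend removed (-0.57), with median centring (-0.52) and without RA ΔG het replicate 3 (-0.52).

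Cbx2 minus Cbx7 changed in 1 direction in all 4 comparisons. It was -2.03, -1.85 and -1.82 in ES ΔPG het and -1.05, -0.94 and -0.91 in RA ΔPG het, and -2.38, -2.23 and -2.07 in ES ΔPG hom and -0.75, -0.95 and -0.99 in RA ΔPG hom. In the ΔG table it was -2.36, -2.26 and -2.30 in ES het and -0.49, -0.43 and -0.66 in RA het, and -2.59, -2.67 and -2.50 in ES hom and -0.97, -0.91 and -0.94 in RA hom. No RA sample reached an ES sample. The change was 0.94 ± 0.08 (SE) in ΔPG het, 1.33 ± 0.12 in ΔPG hom, 1.78 ± 0.07 in ΔG het and 1.65 ± 0.05 in ΔG hom, each with an exact permutation p of 0.1, the smallest that 3 against 3 samples allow. After removal of the GC trend it was 0.93, 1.30, 1.75 and 1.62. On the per-length scale Cbx7 stayed above Cbx2 in RA cells, at 6.81 against 5.74 in ΔPG hom and 6.84 against 5.73 in ΔG hom.

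**Figure D2:**
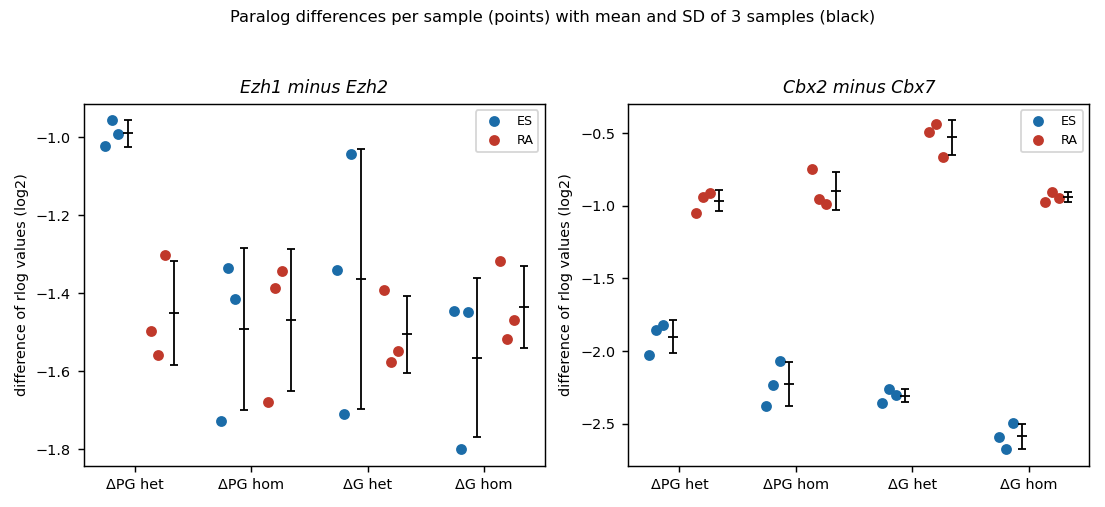
Difference of the rlog values (log2, vertical axis) of Ezh1 and Ezh2 (left) and of Cbx2 and Cbx7 (right) in each sample, for ES (blue) and RA (red) in the 4 combinations of line and genotype, with the mean and SD of 3 samples in black. Cbx2 minus Cbx7 is higher in every RA sample than in every ES sample, whereas for Ezh1 minus Ezh2 the RA and ES samples overlap except in ΔPG het.

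Bmi1 (Pcgf4) was at 6.15, 5.97 and 5.78 in ES ΔPG het, 6.53, 6.65 and 6.74 in ES ΔPG hom, 7.38, 7.35 and 7.28 in RA ΔPG het and 7.33, 7.42 and 7.32 in RA ΔPG hom. Its ΔG values were 6.77, 6.85 and 6.77 in ES het, 6.92, 6.60 and 6.87 in ES hom, 7.55, 7.67 and 7.64 in RA het and 7.52, 7.48 and 7.54 in RA hom. Every RA sample lay above every ES sample of its table. Bmi1 rose by 1.37 in ΔPG het (adjusted p = 9.63e-06; 1.04 with the GC trend removed), 0.72 in ΔPG hom (8.94e-06), 0.82 in ΔG het (4.01e-07) and 0.72 in ΔG hom (2.49e-06).

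Rnf2 was at 7.89, 7.98 and 8.03 in ES ΔPG het, 8.98, 9.0 and 9.07 in ES ΔPG hom, 8.79, 8.83 and 8.72 in RA ΔPG het and 8.90, 8.85 and 8.82 in RA ΔPG hom. For the ΔG line it was at 9.06, 9.07 and 9.02 in ES het, 8.95, 8.85 and 9.0 in ES hom, 9.03, 8.99 and 8.83 in RA het and 8.81, 8.84 and 8.84 in RA hom. The ES ΔPG het samples stood furthest from the others of their table, and the ES ΔPG hom samples lay just above its RA samples. Rnf2 rose by 0.81 in ΔPG het (adjusted p = 4.51e-06), and by 0.36 with the GC trend removed, which is under the limit of size. In the comparisons without those libraries the difference was -0.16 in ΔPG hom (95% interval -0.26 to -0.06), -0.10 in ΔG het (-0.22 to 0.02) and -0.11 in ΔG hom (-0.22 to 0.0048), with no call.

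**Figure D3:**
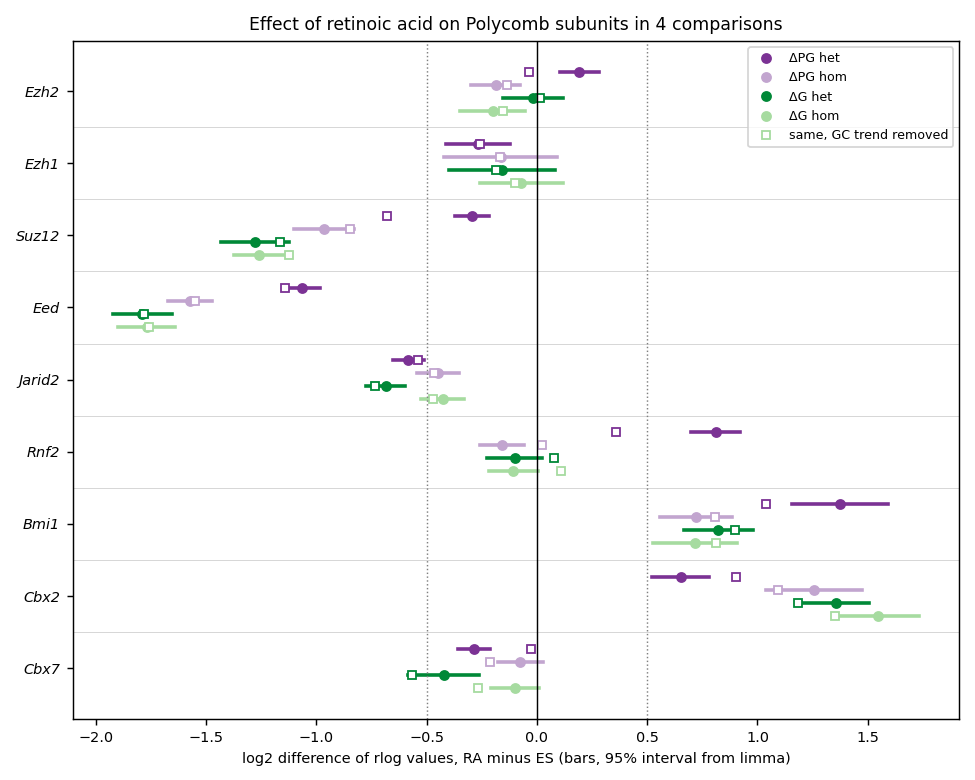
Difference of RA from ES (log2, horizontal axis) for each subunit, with filled points and 95% intervals (limma) for the values as deposited, open squares after removal of the GC trend and dotted lines at the limit of 0.5. Eed lies at -1.06 to -1.79 and Cbx2 at 0.65 to 1.55, and the filled and open symbols of ΔPG het stand furthest apart in Rnf2 (0.81 and 0.36) and Suz12 (-0.29 and -0.68).

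The second question was whether homozygous differed from heterozygous cells. In ΔPG ES cells Suz12 (0.82, adjusted p = 5.49e-06), Rnf2 (1.05, 3.42e-06) and Bmi1 (0.67, 0.0015) were higher in hom and Cbx2 (-0.54, 0.00105) was lower, 4 of 9 where 13.2% of all genes were called (6.87% higher and 6.29% lower). These shares are over 21979 varying genes, among them low ones that the rlog draws towards their mean. Of the 11904 genes with a mean of at least 3, 2757 were called with a gene length trend removed. Hom and het samples did not overlap in 8 members, against 39.6% of all 21979 genes. Eed (0.45, 1.44e-05), Ezh2 (0.37, 0.00034), Jarid2 (-0.22, 0.000559) and Cbx7 (-0.22, 0.00134) passed the limit on p alone, 8 of 9 in all against 36.1% of genes. This comparison sets the libraries that stood apart against those at the other end of the GC range. The differences followed the GC content of the genes, with r = -0.94 over the 9 members and -0.83 over 46 Polycomb genes, genes of 1 set of 6 libraries and no independent points. With the GC trend removed none of the 9 was called by limma, where 7.28% of the 11904 genes with a mean of at least 3 were. The 6 with an unadjusted p under 0.05 also passed the adjusted limit and missed only that on size. They included Suz12 at 0.31 (adjusted p = 1.12e-08), Rnf2 at 0.40 (5.31e-09), Bmi1 at 0.25 (0.0411) and Eed at 0.36 (6.58e-10). Jarid2 at -0.15 (5e-05) and Cbx7 at 0.18 (0.000411), with its sign turned, made up the rest. Ezh2 was then at 0.09 (limma, adjusted p = 0.134) and Cbx2 at -0.12 (0.236). The call of Cbx2 was also lost without ES ΔPG hom replicate 1 (-0.48). The deletion, the clone and the GC trend cannot be told apart in the values as deposited. Marker levels also differed between these ES samples, and their part was not tested. The log2 of the summed level was 9.3 to 9.4 in het and 8.9 to 9.0 in hom samples for primitive endoderm, 9.28 to 9.30 and 8.58 to 8.67 for neural markers and 13.9 to 14.0 and 13.7 for undifferentiated ESCs.

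**Figure D4:**
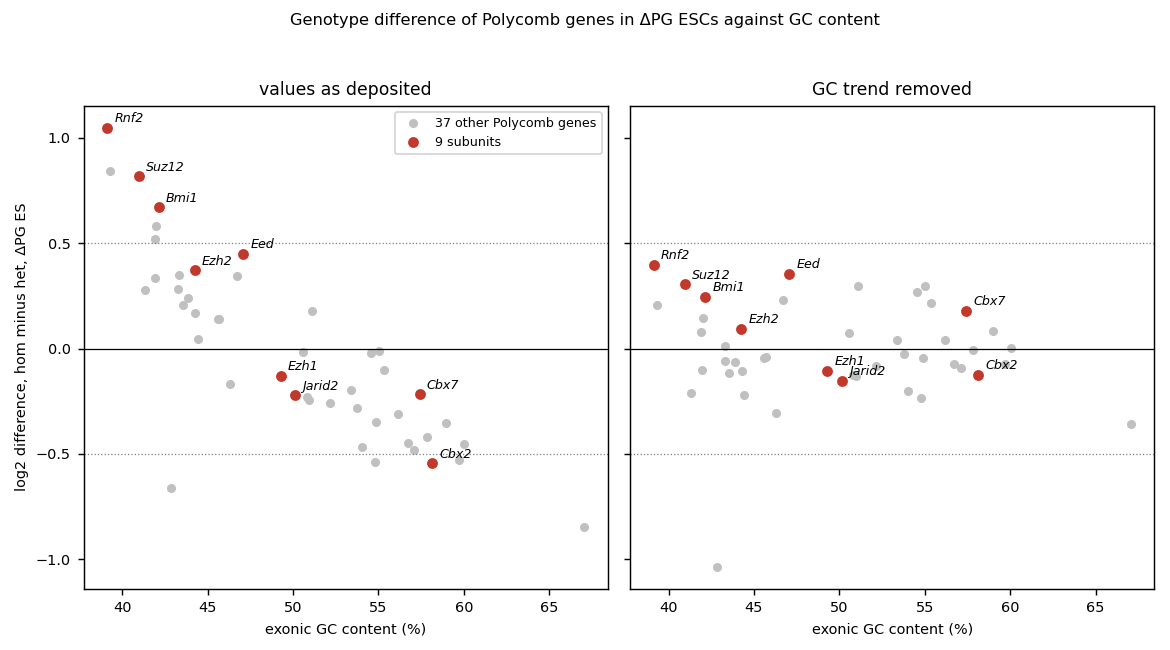
Difference of hom from het ΔPG ES cells (log2, vertical axis) against exonic GC content in percent (horizontal axis) for the 9 subunits (red, named) and 37 other Polycomb genes (grey), as deposited on the left and with the GC trend removed on the right, with dotted lines at the limit of 0.5. The points fall from Rnf2 at 1.05 to Cbx2 at -0.54 on the left (r = -0.83 over 46 genes), and on the right all 9 subunits lie between the dotted lines (r = -0.08).

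In the other 3 genotype comparisons limma called no member. In ΔPG RA cells, where 0.846% of genes were called (4.58% on p alone, and 0 members), 1 member had an unadjusted p under 0.05 and hom and het did not overlap in 1 (18.8% of all genes). The 9 differences there ran from -0.09 to 0.15. In ΔG ES cells (0.984% of genes called, 5.22% on p alone) 3 members had an unadjusted p under 0.05 and 3 did not overlap (17.8% of all genes), among them Suz12 at 0.11 (adjusted p = 0.0998), the 1 that passed on p alone. In ΔG RA cells (2.14% of genes called, 11.0% on p alone) 3 members had an unadjusted p under 0.05 and 4 did not overlap (21.8% of all genes). There Cbx7 was 0.38 higher (95% interval 0.24 to 0.53, adjusted p = 0.00135) and Jarid2 0.24 higher in hom (0.13 to 0.34, adjusted p = 0.00413), both under the limit of size. Fits with a replicate block, with no variance trend and on all 12 samples of a table also called no member in these 3 comparisons. Marker levels of other cell types differed between the genotypes in the same samples, and their part in these values was not tested. For primitive endoderm markers the log2 of the summed level was 11.4 to 11.5 in het and 10.5 to 10.6 in hom RA samples of ΔPG, 11.7 to 11.8 and 10.8 to 10.9 in those of ΔG, and 8.96 to 9.04 and 8.55 to 8.69 in ES ΔG samples. For fibroblast markers it was 10.25 to 10.28 in het and 9.69 to 9.76 in hom RA samples of ΔPG, and 9.96 to 10.03 and 9.35 to 9.42 in those of ΔG. For neural markers it was 9.77 to 9.82 and 9.62 to 9.70 in RA ΔPG, and 9.30 to 9.35 and 9.59 to 9.64 in RA ΔG.

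The third question was whether the effect of RA differed between genotypes. In ΔPG cells the interaction was called for 5 members, where 13.9% of all 21979 varying genes were called, and 8 passed on p alone (29.1% of genes). Of the 11904 genes with a mean of at least 3, 2939 were called with a gene length trend removed. The effect in hom minus that in het was -0.97 for Rnf2 (adjusted p = 1.31e-07), -0.67 for Suz12 (1.85e-05), -0.65 for Bmi1 (0.000912), -0.51 for Eed (7.61e-06) and 0.60 for Cbx2 (0.00232). Without RA ΔPG hom replicate 1 the values of Cbx2 (0.49) and Eed (-0.49) lost the call, as did that of Eed without ES ΔPG het replicate 3 (-0.50) and without RA ΔPG het replicate 1 (-0.48). With the GC trend removed limma called none of the 9, where 9.43% of those 11904 genes were called. The 4 with an unadjusted p under 0.05 also passed the adjusted limit and missed only that on size. They were Eed at -0.41 (adjusted p = 1.11e-05), Rnf2 at -0.34 (0.000164), Suz12 at -0.17 (0.0473) and, with its sign turned, Cbx7 at -0.19 (0.024). Ezh2, at -0.38 as deposited, was then at -0.10 (limma, adjusted p = 0.309), and Jarid2, at 0.14 as deposited, was at 0.07 (0.314). In the ΔG table none was called by limma (2.38% of genes called), and 2 passed on p alone (5.28% of genes), both at an unadjusted p under 0.05, Cbx7 at 0.32 (adjusted p = 0.045) and Jarid2 at 0.26 (0.0205). There the effects of RA on Suz12 and Eed differed between genotypes by 0.02 (95% interval -0.17 to 0.20) and 0.02 (-0.16 to 0.20).

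Of 37 other Polycomb genes, all measured in both tables, 10 rose and 6 fell with RA in ΔPG het, 16 and 7 in ΔPG hom, 17 and 7 in ΔG het and 15 and 9 in ΔG hom. Their median differences were 0.16, 0.18, 0.19 and 0.33, against 0.01, 0.01, 0.04 and 0.02 over all genes. The shares of all genes called in each direction are given above, and the classes were not tested against them or each other. In ΔPG het 22 of 37 were called with the GC trend removed. Of the 22 other PRC1 genes 7, 11, 12 and 10 rose and 4, 5, 4 and 5 fell. Of the 7 other PRC2 genes 1 rose in each comparison, and 2, 1, 2 and 3 fell. Of the 6 genes of the PR-DUB deubiquitinase 1, 3, 3 and 3 rose and 0, 1, 1 and 1 fell, and of the demethylases Kdm6a and Kdm6b 1 rose in each comparison and 0 fell.

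The other PRC2 genes included a partner that fell with Eed and Suz12. Mtf2 (Pcl2), a Polycomb-like protein that binds CpG-rich DNA, fell, with differences of -0.77, -1.46, -1.67 and -1.79 in ΔPG het, ΔPG hom, ΔG het and ΔG hom (adjusted p = 4.69e-07, 1.55e-10, 2.75e-12 and 2.37e-17). Its relative Phf19 was not called, at 0.28, 0.16, 0.19 and 0.35. In ΔPG het both were called with the GC trend removed, at -1.21 for Mtf2 and 0.51 for Phf19. E130012A19Rik, the gene of the elongin-binding PRC2 partner Epop, fell in ΔPG het (-1.29, adjusted p = 5.4e-07; -1.06 with the GC trend removed) and in ΔG hom (-0.58, 3.78e-07), and was at -0.37 and -0.20 in ΔPG hom and ΔG het. The histone-binding subunit Rbbp7 was the 1 gene of this class that rose, by 1.03 (0.77 with the GC trend removed), 0.70, 1.10 and 1.10, and Aebp2 fell in ΔG het (-0.79) and ΔG hom (-0.71). Rbbp7 and Aebp2, and below Asxl2 and Kdm6b, were named after their values were seen.

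Among the other chromobox genes, Cbx8 rose in 3 comparisons, as Cbx2 did in all 4. Cbx8 differed by 0.49 (adjusted p = 0.00946, not called) in ΔPG het, 1.03 in ΔPG hom, 0.67 in ΔG het and 0.86 in ΔG hom. Cbx6 went the other way, at -0.76 and -0.70 in ΔPG het and ΔG het, both called, and -0.31 and -0.41 in the hom cells, not called. After removal of the GC trend Cbx8 was called in ΔPG het (0.72) and Cbx6 was not (-0.50, just inside the limit).

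Of the polyhomeotic scaffold genes of PRC1, 1 rose while its paralog fell. Phc2 rose by 1.07, 1.60, 1.91 and 1.97 in ΔPG het, ΔPG hom, ΔG het and ΔG hom (adjusted p = 8.87e-07, 1.46e-09, 8.07e-11 and 4.88e-13) and Phc1 fell (-1.26, -0.97, -1.13 and -1.18, adjusted p = 7.8e-08, 1.45e-07, 1.07e-08 and 1.29e-09). Yaf2, a partner of the RING proteins in variant PRC1, rose by 1.70, 1.39, 1.69 and 1.88. L3mbtl2, a subunit of the PRC1 variant with Pcgf6, fell in all 4 (-1.38, -0.85, -1.11 and -1.01, adjusted p = 6.13e-07, 5.08e-08, 3.04e-08 and 2.4e-10). The ΔPG het values with the GC trend removed were 1.31 for Phc2, -1.12 for Phc1, 1.55 for Yaf2 and -1.18 for L3mbtl2, all called. Pcgf2 (Mel18), the closest paralog of Bmi1, was not called, at -0.37, -0.17, -0.16 and -0.06, and Ring1, the paralog of Rnf2, was called only in ΔG het (0.61, adjusted p = 0.00376), at 0.11, 0.18 and 0.34 in the others. Of the PR-DUB list, Asxl3 rose by 1.53, 1.58, 1.31 and 1.33 and Asxl2 fell in ΔPG hom (-0.72), ΔG het (-0.86) and ΔG hom (-0.83). The demethylase that rose was Kdm6b, by 0.58, 0.92, 0.74 and 1.46. In ΔPG het the values with the GC trend removed were -0.13 for Pcgf2 and 0.36 for Ring1, not called, and 1.31 for Asxl3, -0.68 for Asxl2 and 0.82 for Kdm6b, called.

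**Figure D5:**
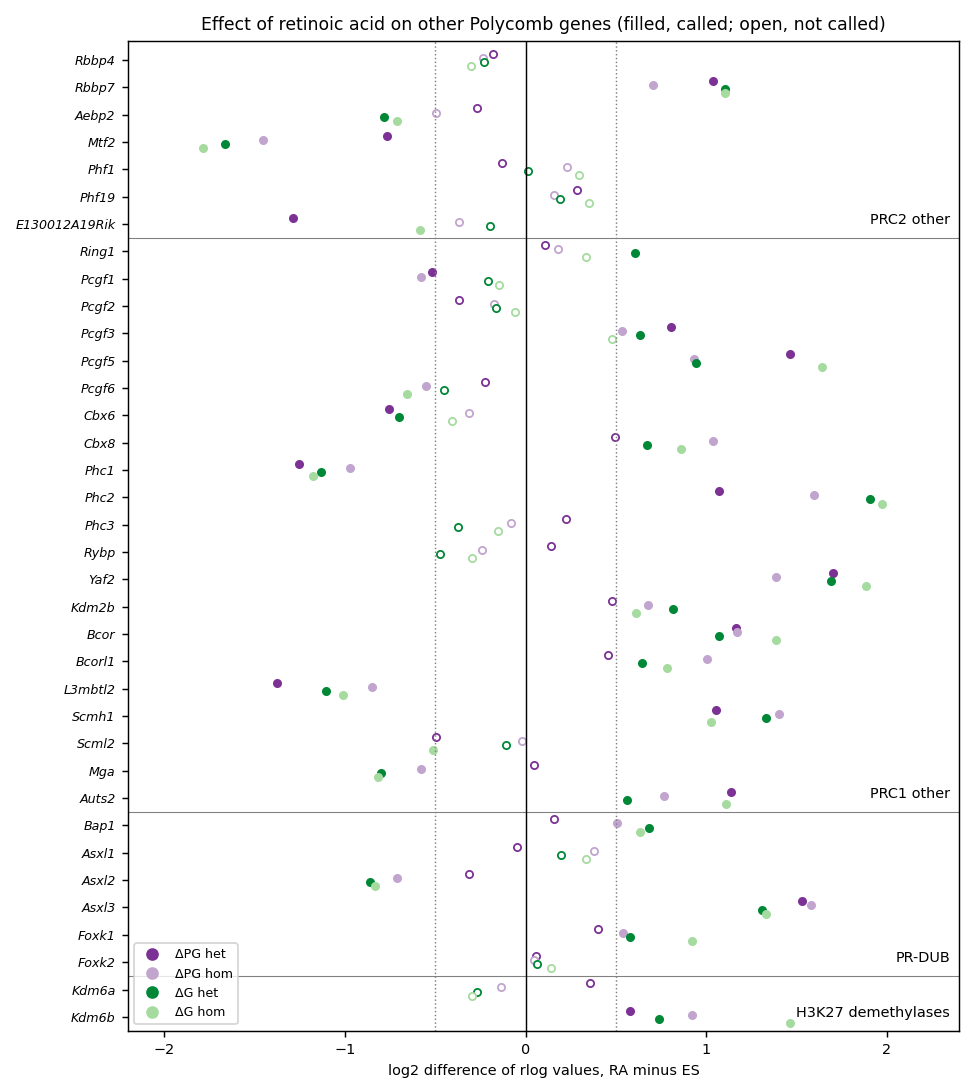
Difference of RA from ES (log2, horizontal axis) of the 37 other Polycomb genes, 1 of them left out, in the 4 comparisons (colours), filled where called and open where not, by class from top to bottom, with dotted lines at the limit of 0.5. In ΔG hom Phc2 (1.97) and Yaf2 (1.88) lie furthest to the right and Mtf2 (-1.79) furthest to the left, whereas in ΔPG het L3mbtl2 (-1.38) lies left of Mtf2 (-0.77).

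Between genotypes 3 of the other Polycomb genes were higher in hom ΔPG ES cells (Mtf2 at 0.84, Mga at 0.58 and Kdm6a at 0.52) and 4 were lower (E130012A19Rik at -0.85, Scml2 at -0.66, Cbx8 at -0.54 and Phc2 at -0.53). After removal of the GC trend 1 of 37 was called, Scml2 at -1.03, and the other values were 0.21, 0.14, 0.08, -0.36, -0.24 and -0.07. In RA cells limma called none in ΔPG (6 of 37 at an unadjusted p under 0.05) and none in ΔG (11 of 37). In ΔG ES cells 1 was called, E130012A19Rik, at 0.58 higher in hom (adjusted p = 0.0218), and with the replicate block 0 of 37 were called by limma (9 at an unadjusted p under 0.05). The genes of this paragraph were named after their values were seen.

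Of a list of genes that Polycomb is known to silence in ESCs (developmental regulators and Cdkn2a and Cdkn2b), 11 rose and 2 fell of 16 measured in ΔPG het and in ΔPG hom, 11 rose and 2 fell of 17 in ΔG het, and 11 rose and 1 fell in ΔG hom, with medians of 2.1, 1.88, 1.71 and 1.66. The list was not tested against the 18.0%, 16.5%, 17.7% and 17.0% of all genes called higher. Genes that the list shares with the marker lists above include Gata4, Gata6, Sox17, Foxa2, Pax6 and Hoxb1. The 2 that fell were the mesoderm regulators T and Eomes, of which only T was called in ΔG hom, as was seen after the count. Nkx2-2 was under 1 in every ES and RA sample, and Pax3 in every sample of all groups but RA ΔPG hom. Neurog1 was under 1 in every ES and RA sample of the ΔG table. Of 10 proliferation genes 3 fell and 1 rose in ΔPG het, 5 and 0 in ΔPG hom, 5 and 1 in ΔG het and 5 and 0 in ΔG hom. The replication licensing genes Mcm2, Mcm5 and Mcm6 fell in all 4, Pcna and Top2a in all but ΔPG het, and the gene that rose was Mki67. The log2 of their summed level was 14.0 to 14.1 in ES and 13.5 to 13.7 in RA samples, and its part in the fall of Eed and Suz12 was not tested.

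The genes whose values ran most like those of the 2 paralog pairs were sought over the 12 samples of each table, among 11766 genes. The 12 samples of a table share 2 treatments and were normalised together, so these are descriptions. For Cbx2 they were Flywch1 (r = 0.986 in ΔPG and 0.992 in ΔG), Col5a1 (0.983 and 0.995) and Nck2 (0.983 and 0.991). For Cbx7 they included Urm1 (0.915 and 0.909) and Vasp (0.908 and 0.905). For Ezh2 they were Thoc7 (0.885 and 0.825), Atpif1 (0.926 and 0.777) and Lyplal1 (0.783 and 0.751), and for Ezh1 6330416G13Rik (0.774 and 0.686), Cecr5 (0.687 and 0.679) and Sike1 (0.774 and 0.671).

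The series also holds 4C-seq of ESCs, which lists genomic regions in contact with a bait, here the 5430416N02Rik locus. All 9 members lie on other chromosomes than the bait. The gene bodies of Suz12, Eed, Jarid2, Rnf2, Cbx2 and Cbx7 overlapped a called region in both replicates, those of Ezh2 and Ezh1 in replicate 2 alone, and that of Bmi1 in neither. Regions of both replicates held 6 of 9 members, 43.1% of 16981 genes that varied in both tables, 38.4% of 21887 protein-coding genes and 33.9% of 49943 RefSeq genes. The region over Eed in replicate 1 spanned chr7:87341905-91072735, with the gene at chr7:89954654-89980976, and that over Suz12 chr11:71368204-81699218, with the gene at chr11:79993106-80034123. The regions are megabases long and hold many genes, and 3 of the members lie on chromosome 11. The processing notes name mm9, but the coordinates as deposited were read as GRCm38, since 9 regions ended past an NCBIM37 chromosome and 24 of 680 starts met a HindIII site of NCBIM37 as deposited, against 655 of the 668 that could be moved by an offset between the builds. No test was made, as there is no control bait.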

How the data were processed

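RNA was measured in 24 samples, 3 per combination of line (ΔPG or ΔG), genotype and treatment, which were grouped as the labels give them. Stranded total RNA libraries were aligned by the authors to NCBI37/mm9 with TopHat2, duplicates were removed with Picard, and reads were counted per gene and strand with HTSeq on GENCODE vM1 names. The deposited values are log2 (rlog) values that the authors made with DESeq2, in 1 table of 12 samples per line. The submitters' processing notes name TopHat2 2.1.0, HTSeq 0.6.0 and DESeq2 1.14.1. The rlog draws low genes towards their mean, so that small counts give small differences, and whether it used the sample groups is not given in the sources used here. The tables hold no counts, so the depth and counting error of a sample are unknown. The 4C-seq files hold only region coordinates.

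Each comparison was tested over all varying genes of its table on its own 6 samples (12 for the interaction) with limma 3.58.1 in R 4.3.3, by lmFit and trended eBayes, with Benjamini-Hochberg adjustment over all of them. A call needed an adjusted p under 0.1 and a difference over 0.5. Exonic length and GC content came from GENCODE vM1 on NCBIM37, and the GC trend of each library was removed with lowess (span 0.3) over genes with a mean of at least 3. Counts and promoter matches were made with pandas 2.3.3 and numpy 2.4.6 (Python 3.11.15). The fits were tested on simulated data. Alternatives were other limits, scalings, filters, a replicate block and leaving out each sample in turn. The named genes are the 9 members, the 2 other Polycomb genes with the largest rise and fall per RA comparison, paralogs and partners (Cbx6, Cbx8, Ring1, Pcgf2, Mtf2 and Phf19) and the 3 genes most like each of Ezh2, Ezh1, Cbx2 and Cbx7. The members and lists were chosen with earlier results of these data known, and p-values measure only the spread between these samples, whose separate cultures the labels do not give. Some genes that these rules and lists name are not reported here. RIP-seq and Capture-C-seq were not analysed here, and no fold changes or p-values of the authors were used.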

Additional observations from a re-analysis of the deposited data

Results flagged for a closer look

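The effect of RA differed between ΔPG hom and ΔPG het cells, by a test of the difference itself (limma interaction term, adjusted over 21979 genes), in 5 members. The effect in hom minus that in het was -0.67 for Suz12, -0.51 for Eed, -0.97 for Rnf2, -0.65 for Bmi1 and 0.60 for Cbx2. With the GC trend removed the values were -0.17, -0.41, -0.34, -0.23 and 0.19. Their adjusted p (limma) was then 0.0473, 1.11e-05, 0.000164, 0.166 and 0.26. None was called, as all were under the limit of size. In the ΔG table the same term was 0.02 for Suz12, 0.02 for Eed, -0.01 for Rnf2, -0.11 for Bmi1 and 0.19 for Cbx2. The ΔG and ΔPG cells differ in the deletion, the cassette, the clones and the libraries, and these cannot be told apart here. Over the 9 members the ΔPG term followed exonic GC content with r = 0.94, given as a description. The GC range of the libraries moves with the genotype in ΔPG ES cells, and its part was measured only by this removal.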

How the results depend on the processing

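With the limit on p alone, 9 members passed in RA against ES in ΔPG het, 7 in ΔPG hom, 8 in hom against het in ΔPG ES, 1 in ΔG ES, 2 in ΔG RA, 8 in the ΔPG interaction and 2 in the ΔG interaction. With the GC trend removed 0 passed both limits in hom against het in ΔPG ES and 0 in the ΔPG interaction, where 867 and 1122 of 11904 genes were still called, and the cause of the loss was not tested. Leaving out each sample in turn gave 3 to 5 calls in the ΔPG interaction, 3 to 4 in hom against het in ΔPG ES, 5 to 6 in RA against ES in ΔG het, 5 in ΔPG het, 4 in ΔPG hom and ΔG hom and 0 in the other comparisons. Signs turned with the GC trend removed for Ezh2 in RA against ES in ΔPG het (-0.035), Rnf2 in ΔPG hom (0.023) and ΔG hom (0.11), and Cbx7 in hom against het in ΔPG ES (0.18) and in the ΔPG interaction (-0.19), and with quantile normalisation for Rnf2 in ΔPG hom (0.0070). None of these was called under either setting, and a difference that missed the limit on p under both was taken to have no direction. Cbx7 passed that limit in opposite directions as deposited and with the GC trend removed. The adjusted p (limma) was 0.00134 and 0.000411 in hom against het in ΔPG ES, and 0.0107 and 0.024 in the ΔPG interaction. Ezh1 minus Ezh2 turned in ΔPG hom with the GC trend removed (-0.031) and in the range from leaving out single samples (-0.095 to 0.13, below 0 without ES replicate 1 or RA replicate 2 or 3), and in ΔG het without ES replicate 3 (range -0.31 to 0.019). The cause was not tested.

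Deviations of the 24 pairs of samples with the same replicate number correlated at -0.03 to 0.09, and those of pairs with different numbers at -0.07 to 0.04. The samples were therefore not treated as pairs, and whether samples of the same number share a batch was not tested. A fit with the replicate block gave the same number of member calls in every comparison (5 in ΔPG het and 4 in ΔPG hom, for example), and over all genes 112 calls in place of 186 in hom against het in ΔPG RA and 44 in place of 217 in ΔG ES. Quantile normalisation moved the split of all calls in RA against ES from 3911 higher and 2588 lower to 3042 and 3304 in ΔG het, from 3759 and 2675 to 2941 and 3305 in ΔG hom and from 3634 and 2482 to 2864 and 2960 in ΔPG hom. Calls by 4C-seq regions were 6 to 8 members by replicate, 6 by gene start and 5 with regions of at least the median length. Small differences in low genes are beyond what rlog values without counts can show.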
